A study of Mus musculus with 12 samples.

Results

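Cluster 3 is 1 of 5 clusters of radial glial cells (RGCs) in the mouse cortex at embryonic day 14, named interneuron precursors because its nuclei carry radial glia genes together with Dlx factors. Its members are all nuclei assigned to it in the deposited files, 4074 of 50550 nuclei, or 8.06%, over 11 embryos and 25 clusters. Nuclei came from the cortices of C57BL/6J embryos whose dams received daily intraperitoneal saline or ethanol (EtOH), in the methods 6 injections of 2.5 g/kg EtOH as a 25% (v/v) solution from E8.5 on. The 5 saline embryos were S1-1 and S1-2 of dam S1 and S2-1, S2-2 and S2-4 of dam S2, and the 6 EtOH embryos were E1-1 and E1-2 of dam E1 and E2-1 to E2-4 of dam E2. Dams S1 and E1 formed batch 1 and dams S2 and E2 batch 2, so littermates shared a dam and a batch, and p-values over embryos take littermates as independent. Both groups share the strain and the injections, so the saline group differs by design in the EtOH alone, with 2 dams per treatment. A further saline embryo in the labels, S2-3, was not analysed here.

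Radial glia are the neural stem cells that line the embryonic ventricles and divide there through cycles of S phase and mitosis. In the ganglionic eminences of the ventral forebrain they give rise to cortical interneurons and striatal neurons, under Sonic hedgehog and Notch signals. Notch, activated by ligands such as Dll1 on a neighbouring cell, acts through the DNA-binding protein Rbpj on the repressor genes Hes1 and Hes5, which hold cells as progenitors, while the Dlx homeobox factors lead toward the GABAergic neuronal fate. Medial eminence progenitors carry Nkx2-1, and lateral eminence progenitors carry Gsx2.

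Hes5, a marker that defines the cluster, lies at chr4:154960923-154962371 on the forward strand (GRCm38, GENCODE M21), and it overlaps Gm20421 on the other strand. Its RefSeq promoter window at chr4:154960673-154960972 (GRCm38.p6, forward strand) is shown because it holds the letters TGGGAA, the core of the motif that Rbpj binds, once on each strand (capitals, TTCCCA being the reverse strand). Both strands were searched in all windows of this length, and 25.6% of 32851 promoters held the motif at least once, so a match is a description of the letters and not evidence of binding.

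Hes5 promoter: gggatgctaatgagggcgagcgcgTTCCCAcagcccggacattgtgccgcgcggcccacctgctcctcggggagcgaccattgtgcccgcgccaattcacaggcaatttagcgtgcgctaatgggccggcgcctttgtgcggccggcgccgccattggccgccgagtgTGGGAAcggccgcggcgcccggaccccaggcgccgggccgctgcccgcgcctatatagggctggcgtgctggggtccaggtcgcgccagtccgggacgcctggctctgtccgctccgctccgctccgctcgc

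The cluster was supported by 97 to 870 nuclei and 603137 to 7410465 UMIs (unique molecular identifiers, each 1 counted RNA molecule) per embryo. The median nucleus had 5253 to 7645 UMIs in saline embryos and 3142 to 5601 in EtOH embryos, so EtOH embryos were shallower. Levels are CPM, the UMIs of a gene summed over an embryo's Cluster 3 nuclei and scaled to the same total in each embryo. Over the 11084 genes tested, the log2 deviations of saline embryos S1-1, S1-2 and S2-1 from the mean correlated with each other at r = 0.51 to 0.63 across genes, whereas S2-4 correlated at r = -0.37 to -0.23 with the other saline embryos and at r = -6.7e-05 to 0.18 with the EtOH embryos. S2-2 correlated less with S1-1, S1-2 and S2-1, at r = 0.16 to 0.26. Genes are not independent replicates, and these values describe the libraries. S2-4 thus stood apart from its group. It was also the shallowest saline embryo, with a median of 5253 UMIs, within the EtOH range, while the other saline embryos had 6901 to 7645. Counts of changed genes are given with and without S2-4. Because S2-4 was singled out on the tested genes themselves, counts without it are descriptions and lend no support to the changes. Without S2-4 the groups did not overlap in depth, and the part of depth was not tested. Cluster 3 nuclei of different libraries shared 4 of 4070 barcode sequences, and littermates differed by 1.91 to 11.5 in chi-square per gene, so the counts of no pair differed by as little as sampling noise alone.

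The markers were checked against the label. Hes5 averaged 60.3 CPM in Cluster 3, the highest of the 25 clusters, and Adgrv1, an adhesion G protein-coupled receptor gene used as a marker of the cluster, averaged 2114 CPM, second to the 3067 CPM of RGC Cluster 20. Dlx1 averaged 98.7 CPM, below the 252 CPM of the late interneuron precursors of Cluster 10 and above the 11.6 CPM of RGC Cluster 2. Its rank was 4 among the 25 clusters, and that of Dlx2 was 3, with 29.5 CPM. Gad2, which makes the transmitter GABA, reached 120 CPM in Cluster 3 against 1210 CPM in Cluster 10, where it is a defining gene. The nuclei therefore stood at radial glia levels of Hes5 and Adgrv1 and at intermediate levels of Dlx1 and Dlx2, with Gad2 near the radial glia clusters, which had 61.9 CPM in Cluster 2 and 158 CPM in Cluster 20. These clusters were cut from the same nuclei and genes, so no test of cluster against cluster was made.

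Ventral forebrain factors accompanied the radial glia genes. Gsx2 (6.06 CPM) and Olig2 (10.7 CPM) each had their highest mean of all clusters in Cluster 3, and in Cluster 2 they had 0.38 and 0.79 CPM. Nkx2-1 averaged 27.2 CPM in Cluster 3 and 2.57 CPM in Cluster 2. RGC Cluster 20 shared some of these factors, with 47.2 CPM of Nkx2-1 and 10.5 CPM of Olig2, but less Gsx2 than Cluster 3. The pallial factor Emx1, which marks dorsal cortical progenitors, went the other way, with 8.29 CPM in Cluster 3 and 74.96 CPM in Cluster 2. Genes of the cortical hem and choroid plexus were low, and Ttr had 13.2 CPM against 734 CPM in hem Cluster 21. Eomes, the intermediate progenitor gene, had 17.2 CPM in Cluster 3, and Neurod2, of projection neurons, had 21.8 CPM against 252 CPM in the callosal neurons of Cluster 1. Medial, lateral and caudal eminence factors were found side by side in the summed counts, with Nr2f2, a caudal eminence factor, at 134 CPM. Tcf7l2, which mediates Wnt signals and is also used as a marker of thalamic cells, was high at 464 CPM, second to the 1057 CPM of Cluster 20.

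Markers of other cell types were few. Microglia markers summed to 14.3 to 50.4 CPM per embryo over 6 genes. Over the embryos of both groups P2ry12 averaged 16.5 CPM and Cx3cr1 14.8 CPM, while C1qa, the lowest of the list, averaged 0.0123 CPM. Endothelial and pericyte markers summed to 25.8 to 68.2 CPM over 8 genes, meningeal markers to 4.01 to 27.5 CPM over 7 genes, and oligodendrocyte precursor markers to 12.6 to 46.4 CPM over 5 genes, of which Olig2 is also a ganglionic eminence gene. Pdgfrb, of the endothelial and pericyte list, had its highest mean of all clusters in Cluster 3, 22.7 CPM, against 4.93 CPM in Cluster 2. Red blood cell markers summed to 17.7 to 184 CPM over 7 genes, highest in saline embryo S2-2. No gene of these 5 lists was at 0 in the cluster as a whole.

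Of 7169 genes with at least 20 CPM in Cluster 3, 659 had their highest mean there, 33 by over 1.5 times the next cluster and 11 by over 2 times. Hhip stood out, with 44.0 ± 12.1 CPM (SD, n = 11), 10.7 times the 4.13 CPM of the next cluster, and Cluster 3 was highest in 11 of 11 embryos. Hhip (chr8:79965851-80058006, reverse strand) encodes a surface protein that binds Hedgehog ligands and is itself a target of the pathway. Aldh1l1, a folate enzyme gene used as an astrocyte marker, followed with 43.3 ± 17.1 CPM and a ratio of 4.82, and Slc6a11, a GABA transporter gene of astrocytes, with 52.5 ± 14.6 CPM and a ratio of 2.95. Egfr, the receptor for epidermal growth factor, had 84.8 ± 42.8 CPM and a ratio of 3.41, but it was highest in Cluster 3 in 9 of 11 embryos, and its SD was the widest relative to its mean among the 20 genes.

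Arhgef6, a guanine nucleotide exchange factor gene, had 30.6 ± 7.89 CPM and a ratio of 3.40, highest in 11 of 11 embryos. Ptprz1, a receptor phosphatase of radial glia, had 2800 ± 241 CPM, 2.26 times the next cluster, which was projection neuron Cluster 16. Tnc, which encodes the matrix protein tenascin C, had 415 ± 149 CPM and a ratio of 1.72. Lama2, a laminin gene, had 110 CPM, and the collagen gene Col22a1 had 185 ± 39.2 CPM. Sall3, a zinc finger transcription factor gene, had 176 ± 15.9 CPM, with a ratio of 2.49. Fabp7, the brain fatty acid binding protein of radial glia, had 121 ± 33.6 CPM and a ratio of 1.72. For 17 of the 20 genes the next cluster was another radial glia cluster, and for 9 of them it was the non-mitotic Cluster 12. These levels define the cluster and carry no test.

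**Figure D1:**
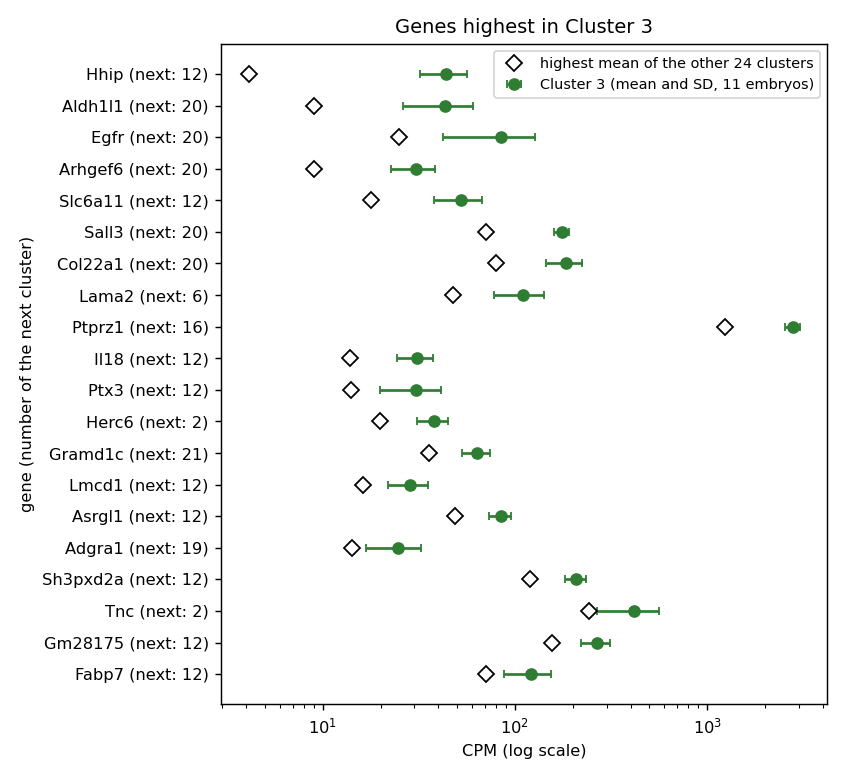
CPM on a log axis of the 20 genes with the highest ratio of the Cluster 3 mean to the highest mean of the other 24 clusters, with the number of that next cluster after each gene. Green points are means with SD over 11 embryos, and open diamonds are the next cluster's mean, so that Hhip shows the widest gap, 44.0 against 4.13 CPM.

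Within Cluster 3, nuclei differed in whether a Dlx RNA was found. Each nucleus was thinned to 2000 UMIs, leaving out 58 shallower nuclei, and 1247 of the remaining nuclei had a UMI of Dlx1, Dlx2, Dlx5, Dlx6 or Dlx6os1 while 2769 had none. Nuclei with a Dlx UMI had more RNA of neurogenic genes. The Notch ligand gene Dll1 averaged 47.8 CPM in them and 19.5 CPM in the others (means over 11 embryos), higher in 10 of 11 embryos, and Gad2 263 and 52.4 CPM, higher in 11 of 11. Markers of young neurons were higher in 10 of 11 embryos, with Dcx at 144 and 92.3 CPM and Sox11 at 405 and 268 CPM.

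Proliferation genes were also higher in nuclei with a Dlx UMI. Top2a, the DNA topoisomerase of dividing cells, averaged 754 and 464 CPM, higher in 11 of 11 embryos, and Mki67 293 and 220 CPM, higher in 9 of 11. The S phase gene Pcna averaged 34.9 and 28.8 CPM and was higher in 8 of 11 embryos.

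Radial glia and Hedgehog genes went the other way. Hes1 averaged 21.8 CPM with and 47.1 CPM without a Dlx UMI, lower with Dlx in 10 of 11 embryos, and Hes5 45.4 and 72.5 CPM, lower in 8 of 11. Hhip averaged 20.8 and 60.7 CPM and Fabp7 53.5 and 136 CPM, both lower in 11 of 11 embryos. Slc1a3, the glutamate transporter of radial glia, averaged 431 and 853 CPM, lower in 11 of 11 embryos, and Tnc 195 and 494 CPM, lower in 10 of 11. The Hedgehog receptor gene Ptch1 averaged 226 and 336 CPM. Notch1 differed least among these genes, with 164 and 198 CPM. The genes compared were chosen after values of the cluster were known, so these are descriptions without a test. Of thinned Cluster 1 projection neurons, which should lack Dlx, 2.42% to 15.4% had a Dlx UMI too, at a median of 6607 UMIs per nucleus before thinning against 6181 in Cluster 3.

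**Figure D2:**
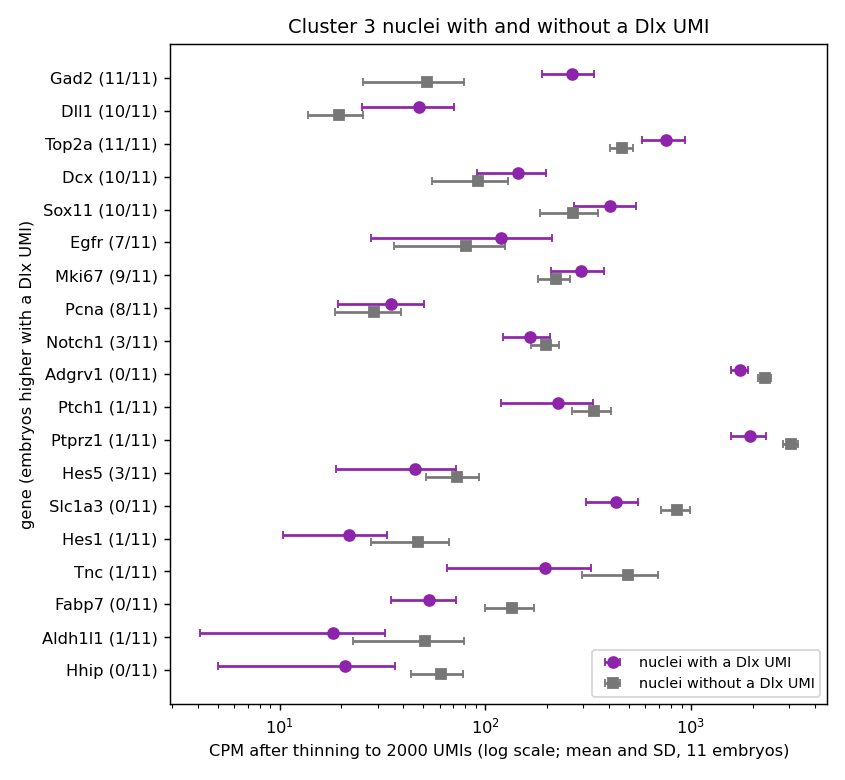
CPM on a log axis, after thinning each nucleus to 2000 UMIs, of genes in Cluster 3 nuclei with a Dlx UMI (purple circles) and without one (grey squares), as mean and SD over 11 embryos. The number after each gene counts the embryos in which it was higher with a Dlx UMI, from 11 of 11 for Gad2 and Top2a to 0 of 11 for Hhip, Fabp7, Slc1a3 and Adgrv1.

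Most nuclei of the cluster were called cycling. Seurat's scores for S and G2/M genes placed 42.5% to 59.4% of an embryo's Cluster 3 nuclei in S phase, 25.9% to 43.3% in G2/M and 9.64% to 25.2% in G1. Saline embryos had 49.6%, 42.5%, 47.0%, 59.4% and 47.3% of nuclei in S phase, in the order S1-1, S1-2, S2-1, S2-2 and S2-4 that is kept below for saline values. EtOH embryos had 45.4% to 55.5%, with a median of 54.3%, and the groups overlapped. In G2/M, saline embryos had 33.0%, 35.96%, 30.3%, 31.0% and 36.4% of nuclei, and EtOH embryos had 25.9% to 43.3% with a median of 27.8%. In 5 of 6 EtOH embryos the G2/M share lay below all saline embryos, and in E1-2 it lay above them all.

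None of the phase shares differed beyond the spread between embryos. The mean share in G2/M was 33.3% ± 2.78 after saline (SD, n = 5) and 30.0% ± 6.59 after EtOH (n = 6), a difference of -3.31 percentage points (two-sided exact permutation test, p = 0.331, adjusted p = 0.773 over 7 comparisons of single values). Without EtOH embryo E1-2 the difference was -5.97 points (exact p = 0.00794, adjusted p = 0.0556). S phase differed by 2.66 points (exact p = 0.452, adjusted p = 0.792) and G1 by 0.66 points (exact p = 0.840, adjusted p = 0.840). Exchanging labels within batches gave p = 0.300, 0.452 and 0.824 for G2/M, S and G1 in exact permutation tests. Calls of a phase from scores do not by themselves show that a nucleus was dividing.

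How much of the cortex the cluster made up varied among littermates. It held 7.74%, 9.05%, 14.5%, 4.44% and 7.73% of the nuclei in the saline embryos, and 4.13% to 8.77% (median 6.51%) in the EtOH embryos. The highest and the second lowest of all 11 values were littermates of dam S2, S2-1 and S2-2. The means were 8.68% ± 3.65 (SD, n = 5) and 6.56% ± 1.63 (n = 6), a difference of -2.12 points that lay within the spread (exact permutation p = 0.238, adjusted p = 0.773, within batches p = 0.252). Dam means were 8.39% and 5.17% for S1 and E1 in batch 1, and 8.88% and 7.25% for S2 and E2 in batch 2.

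As a share of radial glia nuclei, Cluster 3 made up 36.9%, 37.4%, 51.3%, 14.2% and 32% in saline embryos and 22.1% to 41.2% (median 30.4%) in EtOH embryos. The difference of -2.60 points was within the spread (exact permutation p = 0.701, adjusted p = 0.840), and it was 1.64 points without S2-1. Cluster 10 was named late interneuron precursors. There were 0.748, 0.632, 0.434, 0.289 and 0.774 Cluster 10 nuclei per Cluster 3 nucleus in saline embryos and 0.522 to 0.700 (median 0.579) in EtOH embryos. Those ratios differed by 0.022 between the groups (exact permutation p = 0.814, adjusted p = 0.840), and by -0.049 without S2-2 and -0.013 without S2-1. Since a dissection can take in more or less of the ganglionic eminences, its part in the shares cannot be told apart from a difference between embryos.

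The share of Cluster 3 nuclei with a Dlx UMI was lower on average in EtOH embryos, and so was the share in a cell type that should lack Dlx. With nuclei thinned to 2000 UMIs, 43.1%, 31.6%, 34.8%, 22.8% and 32.9% of saline nuclei had a Dlx UMI, and 15.2% to 30.6% (median 23.3%) of EtOH nuclei. The groups overlapped. The means, 33.0% ± 7.24 (SD, n = 5) and 22.8% ± 5.14 (n = 6), differed by -10.2 points (exact permutation p = 0.0238, adjusted p = 0.167, within batches p = 0.0381), so the difference did not pass the threshold after adjustment. In the projection neurons of Cluster 1 the same share was 11.9% ± 3.43 after saline and 4.43% ± 1.45 after EtOH, a difference of -7.47 points (exact permutation p = 0.00216), and the groups did not overlap. With each embryo's Cluster 1 share subtracted, the difference in Cluster 3 was -2.78 points (exact permutation p = 0.400). Counting Dlx1 and Dlx2 alone, it was -3.47 points (exact permutation p = 0.208, adjusted p = 0.773). In Cluster 10 94.2% to 100% of nuclei had a Dlx UMI. Without thinning, the Cluster 3 shares were 60.5% and 35.9%, along with the deeper saline libraries.

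**Figure D3:**
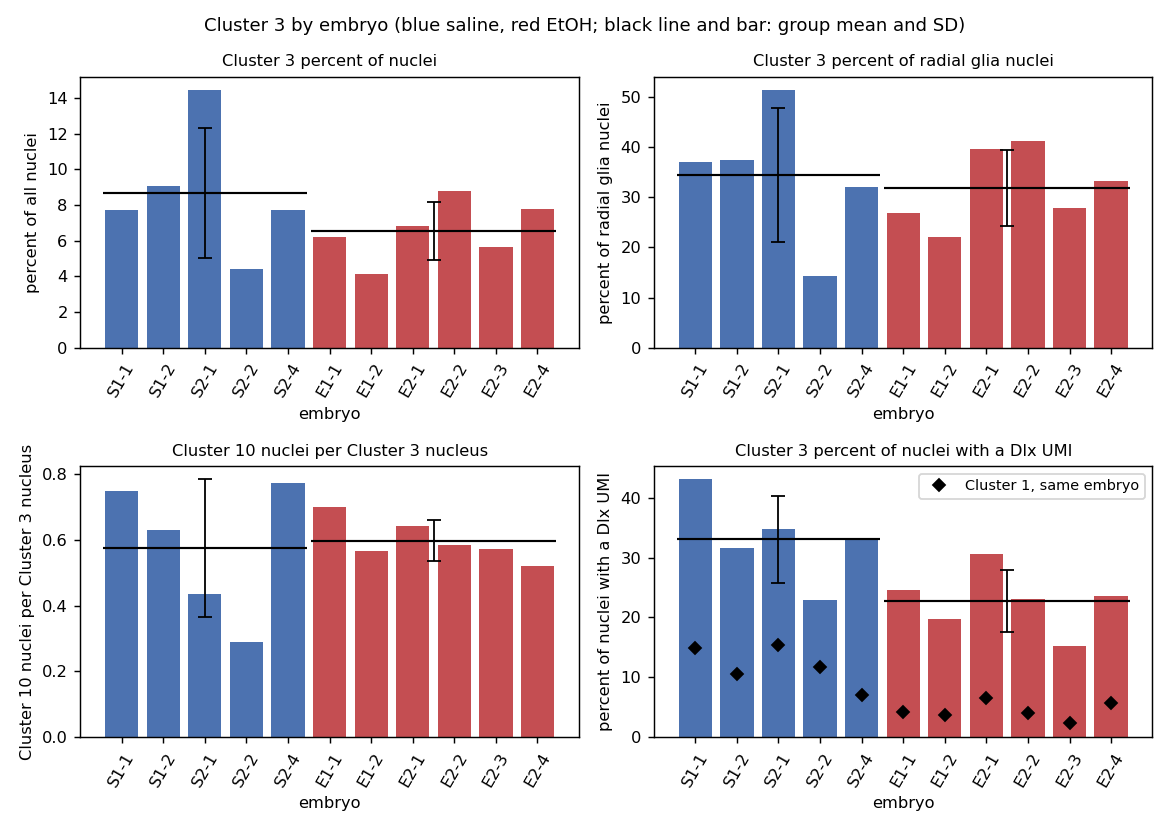
Bars give the share of Cluster 3 in all nuclei, its share in radial glia nuclei, the number of Cluster 10 nuclei per Cluster 3 nucleus and the percent of thinned Cluster 3 nuclei with a Dlx UMI, for each saline (blue) and EtOH (red) embryo, with group mean and SD in black. Diamonds show the percent with a Dlx UMI in Cluster 1 of the same embryo, 7.01% to 15.4% after saline and 2.42% to 6.51% after EtOH.

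Prenatal EtOH was then compared with saline gene by gene on the counts summed per embryo. In Cluster 3, 119 genes rose and 86 fell after EtOH, at an adjusted p below 0.05 in edgeR's quasi-likelihood test and a change past 0.32 on the log2 scale, that is 205 of 11084 genes tested, or 1.85%, with 1.07% higher and 0.776% lower. Radial glia genes Hes1 and Fabp7 and the receptor gene Notch2 were among those that rose. The medial eminence factor gene Nkx2-1, the neuronal factor gene Sox11, the proliferation genes Mki67 and Cenpf and the chaperone genes Hsph1 and Hsp90aa1 were among those that fell. The markers Adgrv1, Hes5, Dlx1 and Dlx2 did not pass the test. Without saline embryo S2-4, 1107 genes were higher and 483 lower (14.2% of 11234 tested), and all 205 genes were among them. In that fit the groups did not overlap in median UMIs per nucleus, and the part of depth was not tested. S2-4 was singled out by its values over these same genes, so the larger count is no support for the changes. Without S1-1, E2-1, E2-2, E2-3 or E2-4 the count was 0, with 2012 to 2387 genes still at an unadjusted p under 0.05, against 2533 with all embryos, and it was 2 without S1-2, 12 without E1-2, 14 without S2-1, 129 without E1-1 and 159 without S2-2. Within batch 1 the count was 357 and within batch 2 it was 1. With batch as a term it was 68, 33 higher and 35 lower, and Hes1, Notch2, Rbpj, Nkx2-1, Cenpf and Hsp90aa1 did not pass. With nuclei thinned to 2000 UMIs it was 53, 23 higher and 30 lower, and Hes1, Fabp7, Notch2, Rbpj, Mki67, Cenpf, Hsph1, Hsp90aa1 and Nwd1 were among those that did not pass.

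Fold changes moved with the length of the gene. The median log2 fold change was 0.22 in the shortest sixth of genes, 297 to 10317 bp long, and -0.11 in the longest sixth, from 114382 bp on. Genes that rose had a median length of 18008 bp and genes that fell 59000 bp, against 31988 bp for all genes tested. The median deviation of the shortest sixth was -0.22, -0.23, -0.20, -0.05 and 0.16 in the saline embryos, so S2-4 lay on the side of the EtOH embryos, which had 0.09 to 0.17. With gene length as an offset in the fit, 136 genes passed, 67 higher and 69 lower, 113 of them among the 205. Ribosomal protein genes, which are short, summed to 415, 367, 412, 635 and 661 CPM in the saline embryos and to 609 to 710 CPM in the EtOH embryos. The parts of gene length and depth in the changed genes were not tested separately.

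Most Notch pathway genes did not pass the test. Of 21 tested members, Hes1 and Notch2 rose, Rbpj fell and 18 did not pass, beside 1.07% higher and 0.776% lower among all genes. Without S2-4 Lfng rose too, beside 1107 of 11234 genes that were higher. With all embryos the median log2 fold change was -0.0026, beside 0.01 for all genes tested. Hes1 (chr16:30064384-30067796, forward strand), the Notch target that represses proneural genes, had 27.3, 28.8, 38.9, 37.1 and 47.5 CPM in saline embryos and 35.9 to 67.4 CPM (median 58.4) in EtOH embryos. Only E1-1 among the EtOH embryos lay within the saline range. Its log2 fold change was 0.60 ± 0.15 (SE, edgeR's adjusted p = 0.0456), and 0.32 with the length offset (adjusted p = 0.188). Notch2 (chr3:98013527-98150361, forward strand), a receptor of the pathway, had 231, 220, 215, 252 and 283 CPM after saline and 261 to 367 CPM (median 313) after EtOH, with a log2 fold change of 0.35 ± 0.09 (edgeR's adjusted p = 0.0475). Here S2-4 overlapped the lowest EtOH embryo.

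Rbpj (chr5:53466152-53657362, forward strand), the DNA-binding protein through which Notch acts, fell. It had 241, 212, 236, 224 and 191 CPM in saline embryos and 165 to 209 CPM (median 180) in EtOH embryos, and the groups overlapped through S2-4 and E1-2. The log2 fold change was -0.36 ± 0.09 (edgeR's adjusted p = 0.0406). Rbpj overlaps Gm10441 and Gm40304 on the other strand, and the strand counted is not stated, so reads of such pairs cannot be told apart. Notch1 (181.6 and 191.0 CPM on average) and Notch3 (172.0 and 196.8 CPM) did not pass, nor did Hes5. Saline embryos had 49.2, 44.0, 50.7, 60.1 and 63.6 CPM of Hes5 and EtOH embryos 44.8 to 93.2 CPM (median 66.5), with a log2 fold change of 0.26 ± 0.13 (edgeR's adjusted p = 0.232) that was -0.16 with the length offset.

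Of 20 radial glia identity genes, 2 rose, Hes1 and Fabp7, 0 fell and 18 did not pass, beside 1.07% higher and 0.776% lower among all genes. Without S2-4, where 1107 of 11234 genes were higher and 483 lower, Hes1 and Fabp7 were higher. Sox2 and Sox9, core factors of neural stem cells, were lower in that fit. With all embryos the median log2 fold change was 0.13, and 6 were higher and 2 lower at an unadjusted p under 0.05, beside 12.4% higher and 10.4% lower among all genes tested. Fabp7 (chr10:57784881-57788450, forward strand) had 86.5, 83.1, 78.4, 97.8 and 123 CPM in saline embryos and 96.1 to 170 CPM (median 150) in EtOH embryos. Again E1-1 was the EtOH embryo within the saline range. Its log2 fold change was 0.59 ± 0.12 (edgeR's adjusted p = 0.0319), and 0.33 with the length offset (adjusted p = 0.0767). The glutamate transporter gene Slc1a3 averaged 625 ± 63.8 CPM after saline and 788 ± 113 CPM after EtOH, and did not pass (edgeR's adjusted p = 0.0965). Aldh1l1 averaged 31.2 ± 6.76 and 53.3 ± 16.9 CPM and did not pass either (edgeR's adjusted p = 0.0732).

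Among ventral patterning factors, Nkx2-1 fell. This homeobox gene (chr12:56531958-56536908, reverse strand) had 40.3, 50.9, 62.6, 24.7 and 27.1 CPM in saline embryos and 8.29 to 23.5 CPM (median 14.6) in EtOH embryos, and the groups did not overlap. The log2 fold change was -1.39 ± 0.30 (edgeR's adjusted p = 0.0418), and -1.65 with the length offset (adjusted p = 0.0523). Nkx2-1 overlaps Gm26973 on the other strand. It was the 1 of 5 tested medial eminence factors that passed, beside 0.776% lower among all genes. Maf was lower too without S2-4, where 483 of 11234 genes were. The median log2 fold change of the 5 was -0.80 with all embryos. Lhx6, a factor of medial eminence interneurons, averaged 8.69 and 5.20 CPM, and Maf 13.7 and 7.31 CPM. None of the 6 lateral eminence factors tested passed (median -0.36), and 4 were lower and 1 higher at an unadjusted p under 0.05, beside 12.4% higher and 10.4% lower among all genes tested. The one higher was Gsx2, with 3.60 ± 0.31 CPM after saline and 8.11 ± 2.39 after EtOH, where the groups did not overlap (edgeR's adjusted p = 0.0537). Without S2-4, Gsx2 passed as higher and Foxp2 as lower, beside 1107 genes higher and 483 lower of 11234. With all embryos, 0 of 4 caudal eminence factors tested passed (median -0.17), where 1.85% of all genes did.

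No Dlx or GABA gene passed the test, where 1.85% of all genes did, so that 0 in lists this short says little about them. Dlx1 (chr2:71528113-71533981, forward strand, overlapping Dlx1as) had 138, 132, 96.1, 66.3 and 134 CPM after saline and 38.1 to 105 CPM (median 100) after EtOH, with a log2 fold change of -0.41 ± 0.23 (edgeR's adjusted p = 0.323). Dlx2 had 29.7, 25.6, 20.8, 15.7 and 39.1 CPM after saline and 28.6 to 38.1 CPM (median 31.8) after EtOH. Gad2 had 136, 120, 154, 124 and 143 CPM after saline and 79.6 to 134 CPM (median 102) after EtOH (log2 fold change -0.38 ± 0.11, edgeR's adjusted p = 0.0587), and passed without S2-4. Of 10 tested subpallial and GABAergic transcription factors 0 passed (median 0.05), and of 5 tested genes of GABA synthesis and transport 0 passed (median 0.12). Without S2-4, 1 of the 10 was higher and 1 lower, beside 1107 genes higher and 483 lower of 11234.

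Of 13 tested neuronal genes, 1 fell, Elavl2, and 12 did not pass, beside 0.776% lower among all genes (4 were lower without S2-4, where 483 of 11234 genes were). At an unadjusted p under 0.05, 10 were lower and 0 higher, beside 12.4% higher and 10.4% lower among all genes tested. The median log2 fold change was -0.37, and -0.29 with the length offset. Summed over the list, saline embryos had 5463 to 8696 CPM and EtOH embryos 5339 to 6053 CPM, and the groups overlapped. Elavl2, an RNA-binding protein of neurons, had 332, 328, 354, 306 and 289 CPM after saline and 220 to 327 CPM (median 251) after EtOH, with E1-2 among the saline values (log2 fold change -0.40 ± 0.10, edgeR's adjusted p = 0.0406). The synaptic genes Nrxn3 (3124 ± 924 and 2104 ± 234 CPM) and Syt1 (331 ± 176 and 179 ± 76.0 CPM) did not pass. Their log2 fold changes were -0.64 and -0.90. The share of Cluster 1 nuclei with a Dlx UMI also differed between the groups, and its source and its part in these genes were not tested. Projection neuron markers summed to 652 to 783 CPM after saline and 547 to 1013 CPM after EtOH, highest in E1-1 and E1-2, and 0 of 8 tested passed, or 1 lower without S2-4.

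Sox11 (chr12:27334264-27342574, reverse strand), a factor of differentiating neurons, fell by 0.86 on the log2 scale. It had 432, 390, 456, 366 and 269 CPM in saline embryos and 196 to 257 CPM (median 216) in EtOH embryos, and the groups did not overlap, with S2-4 as the saline embryo nearest to the EtOH group. The SE was 0.13 and edgeR's adjusted p = 0.0297, the smallest value that any gene reached. Vcan, which encodes the matrix proteoglycan versican, fell from 439 ± 65.0 to 310 ± 34.8 CPM, and Cadps, a gene of vesicle release, from 322 ± 42.4 to 220 ± 25.2 CPM. Both had an adjusted p of 0.0297 in edgeR's test. By mean CPM among the 25 clusters, Cluster 3 ranked 15 for Sox11 and Vcan and 25 for Cadps.

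Among cell cycle genes, 2 mitosis genes fell. Of 36 tested mitosis genes, 0 rose, Mki67 and Cenpf fell and 34 did not pass (median -0.11), beside 1.07% higher and 0.776% lower among all genes. There were 1 higher and 10 lower at an unadjusted p under 0.05, beside 12.4% higher and 10.4% lower among all genes tested. Mki67, the nuclear antigen Ki-67 of dividing cells, had 304, 332, 228, 289 and 306 CPM in saline embryos and 204 to 294 CPM (median 218) in EtOH embryos. Its highest EtOH value, in E1-1, lay apart from the other 5, which ran up to 229. The log2 fold change was -0.42 ± 0.10 (edgeR's adjusted p = 0.0431). Cenpf, a kinetochore protein gene, had 206, 264, 202, 209 and 233 CPM after saline and 164 to 206 CPM (median 178) after EtOH (log2 fold change -0.35 ± 0.09, edgeR's adjusted p = 0.0448). Top2a did not pass, with 556 ± 106 and 606 ± 38.6 CPM (edgeR's adjusted p = 0.677). Of 29 tested DNA replication genes 0 passed, with a median of 0.09, and 0 passed among 14 G1 cyclins and inhibitors (median -0.08) and the 9 S phase genes of the phase score (median 0.02). Of 10 tested G2/M genes of the score, Cenpf passed (median -0.04). Without S2-4, where 1107 of 11234 genes were higher and 483 lower, Cdk1, Cdc20, Mcm5 and Mcm7 were higher. Hells was lower in that fit, besides Mki67 and Cenpf.

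Of the stress genes, 2 that encode chaperones fell. Hsph1, a co-chaperone of the heat shock response, had 48.1, 55.1, 47.1, 53.9 and 51.6 CPM in saline embryos and 28.2 to 37.8 CPM (median 36.05) in EtOH embryos, and the groups did not overlap. Its log2 fold change was -0.57 ± 0.10 (edgeR's adjusted p = 0.0297). Hsp90aa1, the inducible form of HSP90, had 48.8, 50.2, 55.3, 74.7 and 47.0 CPM after saline and 34.9 to 46.9 CPM (median 39.4) after EtOH (log2 fold change -0.54 ± 0.13, edgeR's adjusted p = 0.0418). The groups did not overlap, but S2-4 and E2-3 had nearly the same value, 46.96 and 46.87 CPM. Of 15 tested oxidative and unfolded protein stress genes 13 did not pass (median 0.05), among them Hspa5 and Hspa8, and 0.776% of all genes were lower. Without S2-4, where 1107 of 11234 genes were higher and 483 lower, Sod1 was lower too. Of 13 tested apoptosis and p53 genes 0 passed (median -0.05), or 1 higher and 2 lower without S2-4. Of 11 tested genes of alcohol and retinoid metabolism 0 passed (median 0.05), or 1 higher, Aldh1b1, without S2-4. Aldh2, the main enzyme of acetaldehyde oxidation, averaged 14.3 ± 2.36 and 15.1 ± 6.15 CPM.

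With all embryos, the hedgehog, Wnt, and FGF and EGF lists held no gene that passed, beside 1.85% of all genes, a share at which lists of this size hold few or none. Without S2-4, 2 Wnt pathway genes, Wnt5b and Ror1, were lower, beside 483 of all 11234 genes tested in that fit. In the Sonic hedgehog pathway, 0 of 14 tested passed (median -0.07), and the receptor and target gene Ptch1 averaged 298 ± 76.0 CPM after saline and 283 ± 73.7 after EtOH. In the Wnt pathway, 0 of 32 passed (median -0.08), with 1 higher and 6 lower at an unadjusted p under 0.05, beside 12.4% higher and 10.4% lower among all genes tested. Among FGF and EGF receptors and their feedback genes, 0 of 15 passed (median 0.10). Wnt2b, a Wnt ligand gene outside the list, rose at a low level, with 5.76, 3.94, 6.48, 5.06 and 7.29 CPM in saline embryos and 10.0 to 18.3 CPM (median 14.2) in EtOH embryos, which did not overlap (log2 fold change 1.21 ± 0.22, edgeR's adjusted p = 0.0297). Axon guidance and migration genes had 0 of 24 past the test (median -0.19), or 4 lower without S2-4, where 483 of 11234 genes were. Dcc, the netrin receptor gene, had 3655 ± 1197 CPM after saline and 2409 ± 341 CPM after EtOH.

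Lists of other regions and cell types also held no gene that passed, among 11 tested pallial factors (median -0.20), 8 hem and choroid genes (median -0.12), 4 thalamic genes (median -0.0028), 4 immediate early genes (median 0.11), 6 red blood cell markers (median 0.10) and 10 genes that the study names across clusters (median -0.24). The share of all genes that passed was 1.85%, at which lists this short hold few or none. Without S2-4, 1 pallial factor, 2 hem and choroid genes and 1 thalamic gene were lower and 1 red blood cell marker was higher. In that fit 1107 of all 11234 genes were higher and 483 lower. Of the nuclear long non-coding RNAs, 0 of 9 passed (median -0.23). Malat1 averaged 11680 ± 1639 CPM after saline and 15291 ± 1620 after EtOH (edgeR's adjusted p = 0.0557), and without S2-4 it was higher and Kcnq1ot1 lower past the test. Of 21 tested ribosomal protein genes 0 passed, but 14 were higher and 0 lower at an unadjusted p under 0.05, beside 12.4% higher and 10.4% lower among all genes tested. Their median log2 fold change was 0.45, and 12 were higher past the test without S2-4, where 1107 of 11234 genes were. The 2 tested microglia markers, P2ry12 and Cx3cr1, were both higher at an unadjusted p under 0.05 (median 0.91), with the list's sum at 14.3 to 37.9 CPM after saline, highest in S2-4, and 36.6 to 50.4 CPM after EtOH. Both passed without S2-4. The 2 tested endothelial and pericyte markers had a median of 0.61, with 1, Pdgfrb, higher without S2-4, and the 2 oligodendrocyte precursor markers 0.35.

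The 15 genes with the smallest adjusted p in each direction, chosen by rule, had varied roles. Nwd1 rose from 40.3, 54.1, 35.2, 37.1 and 47.0 CPM in saline embryos to 67.6 to 81.2 CPM (median 74.5) in EtOH embryos, which did not overlap (log2 fold change 0.72 ± 0.12, edgeR's adjusted p = 0.0297). Sfpq, a splicing factor gene involved in the transcription of long genes, fell from 723, 727, 728, 696 and 659 CPM to 532 to 586 CPM (median 561), without overlap (log2 fold change -0.39 ± 0.07, edgeR's adjusted p = 0.0297). Leng8 rose from 70.6 ± 7.46 to 103 ± 6.81 CPM. Mapt, which encodes the microtubule protein tau, rose from 71.3 ± 5.44 to 105 ± 15.4 CPM, unlike most genes of the neuronal list. Mmd2 rose from 51.5 ± 8.26 to 80.1 ± 12.9 CPM, and the bHLH factor gene Ascl4 from 6.36 ± 2.37 to 16.4 ± 4.58 CPM.

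Also among the 15 genes that fell with the smallest adjusted p were Zswim5 (351 ± 27.5 and 254 ± 33.7 CPM), Clvs1 (69.7 ± 14.2 and 38.8 ± 6.34 CPM), the guanylate cyclase subunit gene Gucy1a2 (474 ± 65.4 and 348 ± 30.4 CPM) and Tab2, a kinase adaptor gene (177 ± 10.5 and 143 ± 7.06 CPM). The others were Fam19a1, Ano4, Ndufaf5, Washc2, Raph1 and Magi3. By mean CPM among the 25 clusters, Cluster 3 ranked 1 for Tab2, 6 for Gucy1a2, 11 for Ndufaf5, 13 for Zswim5 and 14 for Magi3. It ranked 15 for Fam19a1, 21 for Ano4 and Raph1, 23 for Clvs1 and 24 for Washc2. The Cluster 1 share with a Dlx UMI differed between the groups, and its part in these falls was not tested. Among the 15 that rose were further 3 protein-coding genes, Fndc9, Trappc4 and Lrrc39, and the non-coding genes Gm27239, Gm16168, 6530409C15Rik, Fbxl12os and Gm48091, of which the last 4 are antisense to other genes, so that without a stated strand their reads cannot be told from those of the partner. All 30 had an adjusted p between 0.0297 and 0.0319 in edgeR's test.

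**Figure D4:**
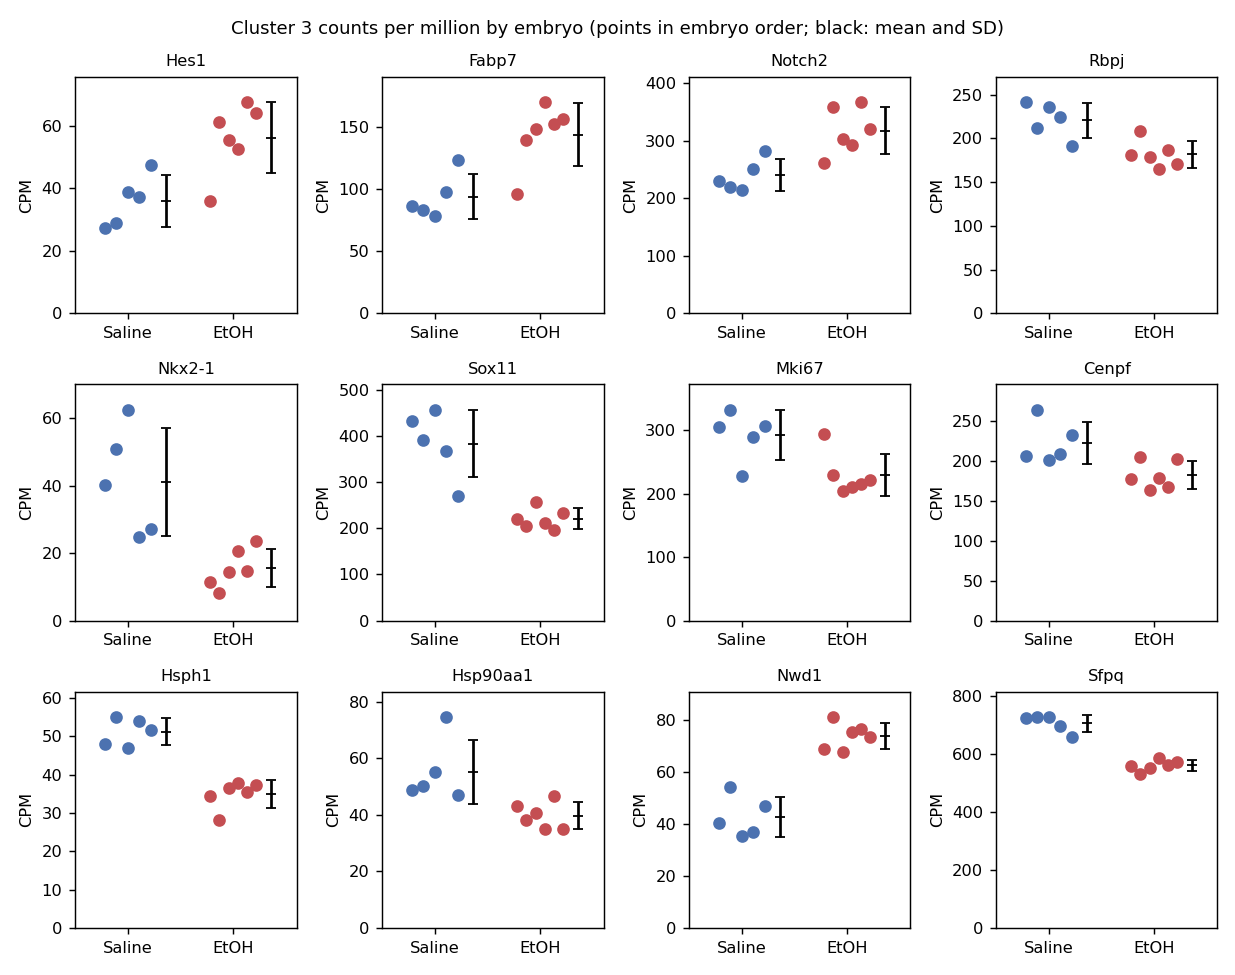
CPM in Cluster 3 of 12 genes that passed the test, 1 point per saline (blue) or EtOH (red) embryo in embryo order, with mean and SD in black and each axis from 0. The last saline point, S2-4, lies nearest to the EtOH group for Hes1, Fabp7, Notch2, Rbpj, Sox11 and Sfpq.

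Whether the EtOH effect differed between clusters was asked by a test of the difference between its effect and that in the cortical radial glia of Cluster 2 or the later interneuron precursors of Cluster 10 of the same embryos. Against Cluster 2, 0 of 12612 genes passed (0% called; edgeR's quasi-likelihood test, with 566 genes at an unadjusted p under 0.05). Against Cluster 10, 1 of 11629 passed (0.0086%), Gm20754, a long intergenic non-coding RNA, with 594 genes at an unadjusted p under 0.05. Gm20754 had a log2 fold change of -0.51 ± 0.20 in Cluster 3 and 0.38 ± 0.26 in Cluster 10, each from the cluster's own fit, and the joint fit of both clusters gave a difference of -0.81 (edgeR's adjusted p = 0.00649). It did not pass in either cluster alone, and the difference did not pass without E2-1 or with nuclei thinned to 2000 UMIs. A gene that misses this test is not shown to respond alike in both clusters.

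Side by side, the log2 fold changes of Hes1 were 0.60 in Cluster 3, 0.48 in Cluster 2 and 1.05 in Cluster 10. Those of Sox11 were -0.86, -0.72 and -0.68, and those of Sfpq -0.39, -0.32 and -0.33. Hsph1 had -0.57, -0.55 and -0.51. For Fabp7 they were 0.59, 0.22 and 0.61, and for Mki67 -0.42, -0.29 and -0.31. Nkx2-1, which was too low to be tested in Cluster 2, had -1.39 in Cluster 3 and -1.20 in Cluster 10. Notch2 had 0.35 in Cluster 3, 0.29 in Cluster 2 and -0.20 in Cluster 10, and Clvs1 -0.95, -0.21 and -0.05. Of the genes that passed in Cluster 3, 198 of 200 tested in Cluster 2 had the same direction there. In Cluster 10 it was 179 of 180, and Notch2 was the gene that went the other way. The embryos are the same in all 3 clusters, so these values share their controls. Of their own, Cluster 2 had 85 genes past the same test among 11837 and Cluster 10 had 18 among 9540.

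Egfr and Tnc, which the study names, varied widely between embryos. Egfr (chr11:16752203-16918158, forward strand, overlapping Egfros) had 105, 107, 22.3, 15.2 and 91.3 CPM in saline embryos. Its EtOH values were 22.95 CPM in E1-1 and 98.3 to 127 CPM in the other 5 embryos. Low and high embryos thus occurred in both groups, with S2-1, S2-2 and E1-1 as the 3 low ones, and the log2 fold change was 0.50 ± 0.54 (edgeR's adjusted p = 0.636). It was -0.83 in batch 1 alone. In batch 2 the EtOH embryos, at 98.3 CPM or more, all lay above the saline embryos, at 15.2 to 91.3 CPM. Tnc (chr4:63959785-64047015, reverse strand) had 388, 331, 156, 337 and 366 CPM after saline and 277 to 666 CPM (median 516) after EtOH, with a log2 fold change of 0.61 ± 0.27 (edgeR's adjusted p = 0.213). Its lowest embryos were S2-1 and E1-1.

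Other genes, chosen after their values were seen, were low in the same 3 embryos. Slco1c1, a thyroid hormone transporter gene, had 3.91, 3.37 and 7.17 CPM in S2-1, S2-2 and E1-1 and at least 12.6 CPM in each of the other 8. Hepacam, an adhesion gene of astrocytes, had 3.24, 3.93 and 4.30 CPM in them and at least 7.29 CPM elsewhere. Abca1, a cholesterol transporter gene, had 84.3, 78.1 and 76.0 CPM in them and 109.7 CPM or more elsewhere. The reverse held for Ebf1, a factor of striatal neurons and their precursors, with 205, 221 and 185 CPM in these 3 embryos. In the other 8 it had up to 126 CPM, with the lowest, 18.2 CPM, in E1-2. The 3 embryos come from 2 dams and both treatments, and the share of Cluster 3 among radial glia was 51.3% in S2-1, 14.2% in S2-2 and 26.8% in E1-1, so that no common size went with the pattern.

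**Figure D5:**
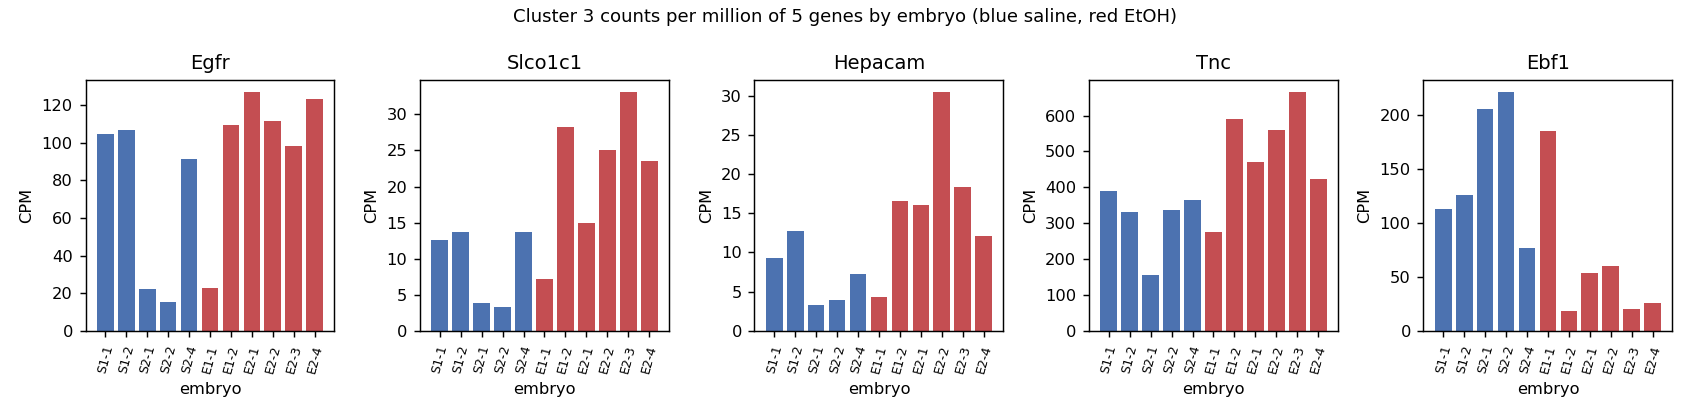
Bars give CPM in Cluster 3 for each saline (blue) and EtOH (red) embryo of Egfr, Slco1c1, Hepacam, Tnc and Ebf1. Egfr, Slco1c1 and Hepacam are lowest in S2-1, S2-2 and E1-1, where Ebf1 is highest, and Tnc is lowest in S2-1 and E1-1.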

How the data were processed

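Single-nucleus RNA libraries (10x 3′ v3.1) of 11 embryos were used. The deposited values are raw counts (UMIs per gene and nucleus), which the authors made with Cell Ranger against mm10, then filtered by nucleus and clustered with Seurat; no doublet caller and no strand are named. Cluster 3 nuclei were taken as the authors assigned them, and their counts were summed per embryo, over 23513 genes, of which 98.40% matched GENCODE M21. EtOH was compared with saline by edgeR 4.0.16 (R 4.3.3; TMM, quasi-likelihood, low-count filter, Benjamini-Hochberg adjustment), and differences between clusters by an interaction term. Calls needed an adjusted p below 0.05 and a fold over 1.25 or under 0.8. Single values were compared by exact permutation tests over 462 splits of the embryos, or 210 within batches, adjusted over 7 tests. Phases came from Seurat 5.3.0. Means of other clusters used embryos with at least 10 nuclei. Text names the 15 genes per direction with the smallest adjusted p, list members that passed, the 20 genes by ratio and markers. Members and the 33 gene lists were chosen with earlier results of these data known. Alternatives were DESeq2 1.42.0, other size factors, no filter, a batch term, dam sums, limma 3.58.1 with dam as a block, thinning, leaving out nuclei or embryos, Dlx1 and Dlx2 alone, and, chosen after seeing the data, a length offset, single batches and the Cluster 1 Dlx share subtracted. In simulated data, edgeR within Cluster 3 recovered 51% of genes changed 1.5-fold and 90.5% of genes changed 2-fold. The interaction test recovered 12% against Cluster 2 and 5% against Cluster 10 at 1.5-fold, and 74% and 54% at 2-fold. The simulation gave all genes 1 common dispersion, with no dam or batch effect and no embryo effect shared between clusters. Changed genes were drawn from the better counted ones, so these rates describe the simulated setting and not the real data. Some genes are not reported here.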

Additional observations from a re-analysis of the deposited data

Results flagged for a closer look

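In 14 of 116 groups of 5 or 6 embryos examined, 1 embryo lay far from the others of its group (Dixon's gap test, which flags about 1 in 20 groups by chance). The groups share the same embryos, so the number is not read against chance. Saline embryo S2-4 was the far one for 5 genes that rose after EtOH, each time on the EtOH side, with 83.7 CPM of Leng8, 10.5 CPM of Ascl4, 28.6 CPM of Fndc9, 54.5 CPM of 6530409C15Rik and 18.7 CPM of Fbxl12os. EtOH embryo E1-1 had a median of 3142 UMIs per nucleus, below the other EtOH embryos, together with 294 CPM of Mki67, 22.95 CPM of Egfr and 185 CPM of Ebf1. EtOH embryo E1-2, with the fewest nuclei, had 43.3% of nuclei in G2/M and 28.2 CPM of Hsph1. Saline embryo S1-2 had 152.7 CPM of Raph1, S2-1 had 156 CPM of Tnc and S2-2 had 61.2 CPM of Dlx6os1, each the lowest of its group. The EtOH effect on Gm20754 differed between clusters by the test of the difference itself, at -0.81 (log2, Cluster 3 minus Cluster 10).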

How the results depend on the processing

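The direction of the EtOH effect was kept by all 39 named genes that passed the test under every alternative. These genes were chosen for passing on the same embryos, so a kept direction is not independent support. Of the 39, 33 still passed with batch as a term, 28 with the length offset, 11 with thinning, 14 in batch 1 alone, 0 in batch 2 alone and 0 without S1-1 or without any 1 of the E2 embryos. The number of genes that passed in Cluster 3, 205, was not stable. It was 535 with DESeq2 (351 higher, 184 lower), 596 without the low-count filter (271 and 325), 68 with batch as a term (33 and 35), 475 with counts summed per dam (300 and 175), 867 with limma and dam as a random block (668 and 199) and 53 with nuclei thinned to 2000 UMIs (23 and 30). Chosen after seeing the data, a gene length offset gave 136, batch 1 alone 357 and batch 2 alone 1. Leaving out 1 embryo gave 0 to 1590 genes. All 205 genes passed with DESeq2 too, and 189, 66, 142, 202 and 22 of them passed in the other 5 settings in the order above. Differences from Cluster 2 numbered 58 without the filter, 3 with thinning and 0 to 1 with 1 embryo left out, and those from Cluster 10 numbered 29, 10 and 0 to 4.

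With 1 embryo left out, the difference in the share of all nuclei was -3.19 to -0.682 points, in the share of radial glia -7.62 to 1.64 points (1.64 without S2-1), in Cluster 10 nuclei per Cluster 3 nucleus -0.0493 to 0.0720 (-0.0130 without S2-1, -0.0493 without S2-2), in G1 -1.31 to 2.02 points (-1.31 without S2-2, -0.760 without E2-2), in S phase 0.999 to 5.21 points, in G2/M -5.97 to -2.49 points and in the Dlx share -12.8 to -7.75 points. Without S2-2 the Dlx difference of -12.8 points passed (exact permutation test, adjusted p = 0.0333), and without thinning it was -24.6 points (adjusted p = 0.0152), where depth differed between the groups. With Dlx1 and Dlx2 alone it was -3.47 points (exact permutation test, adjusted p = 0.773). The log2 fold change of Egfr was -0.83 in batch 1 alone and that of Hes5 -0.16 with the length offset. The cause of these changes was not tested. No paired analysis was possible because replicate numbers name embryos within a dam and pair none across the groups. Depth limits calls for genes with few UMIs, most in E1-2 with 603137 UMIs, and 2 dams per treatment limit what can be said beyond these litters.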
